A study of Mus musculus with 4 samples.

Results

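Haematopoietic stem cells (HSCs) with the least Kit transcript were compared with those holding the most, in single cells from the bone marrow of wild-type mice aged 8 weeks. In each of 4 libraries the cells were ranked by Kit CPM, the Kit count scaled to the total count of the cell. The lowest 25% of each library, 66 cells in all, were called Kit-low, and the highest 25%, also 66 cells, were called Kit-high. They were drawn from 264 ranked cells, of 297 in the series. Kit transcript itself chose the members, so its values are given as a description, without a test.

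Every cell carried the ESLAMSK phenotype: negative for the lineage markers stained, positive for Kit, Sca1, CD150 and EPCR (CD201), and negative for CD48. Marrow was enriched on magnetic beads against c-Kit before the sort, so Kit-low cells too had passed a bead column and a gate for Kit protein. Each library was labelled as a mix of CD27- and CD27+ cells, so no cell could be assigned to either gate. The study set out to compare the gates. Nothing in the labels ties the libraries to separate mice, and p-values reflect how far the 4 libraries vary, possibly for technical reasons alone.

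Kit is the receptor tyrosine kinase for stem cell factor, the product of Kitl. Ligand binding pairs the receptors, which then signal through PI3 kinase, Ras and MAP kinases, Src family kinases and STAT factors. Phosphatases such as Ptpn6 and the ubiquitin ligase Cbl restrain the signal. In mouse marrow, HSCs with less Kit protein on their surface are known for longer self-renewal, and those with more for a lean toward megakaryocytes. Surface protein was not measured per cell here, and transcript need not follow it.

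In GRCm38 the Kit gene spans chr5:75574916-75656722, plus strand (ENSMUSG00000005672.12, protein coding, GENCODE M21). Its promoter window is shown because several transcription factors known to bind the Kit locus are described later. The window is chr5:75574737-75575036 of GRCm38.p6 from RefSeq, plus strand, 300.0 bases with 69.0% G and C. Capitals mark a GC box and an E box.

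Kit promoter: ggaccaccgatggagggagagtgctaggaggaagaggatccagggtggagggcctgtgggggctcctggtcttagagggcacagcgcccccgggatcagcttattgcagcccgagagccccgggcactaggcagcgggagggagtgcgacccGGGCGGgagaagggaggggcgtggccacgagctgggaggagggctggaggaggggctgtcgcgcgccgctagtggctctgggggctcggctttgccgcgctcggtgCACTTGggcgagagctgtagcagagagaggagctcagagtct

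Searched on both strands, the window held 1 GC box, GGGCGG, which Sp1 can bind, a motif found in 35.7% of 32851 promoter windows of the same length. It held 1 E box, CANNTG, of the kind Tal1 and its partners bind, found in 72.3% of windows. It held 0 matches to AGATAA or TGATAA (11.2% and 9.05% of windows), to AACNG, the core that Myb binds (80.3%), and to TGTGGT, a form of the Runx site (16.8%). None of the marked motifs overlap. A match is a run of letters and not a bound site.

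The ranked cells numbered 72, 64, 64 and 64 in libraries 1 to 4, with 32091 to 346876 counts each. Kit-low cells numbered 18, 16, 16 and 16, and so did Kit-high cells. Library 3 was the shallowest, with a median of 69488 counts per ranked cell, against 94200 to 152906 in the others. The left-out cells were 21 with under 30000 counts or 1000 genes and 12 of the runs of consecutively numbered cells in libraries 2 and 4 that an earlier look at these data had set apart. The cell barcodes were numbered, and 26 of 91 numbers occurred in all 4 libraries.

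Kit transcript spanned a wide range among these sorted cells. In library 1 the Kit-low cells ran from 0 CPM through a median of 0 to 31.2, and the Kit-high cells from 309.8 through 396 to 848. In library 2 the Kit-low cells ran from 0 through 0 to 14.8 CPM, and the Kit-high cells from 430 through 634 to 1316. In library 3 the Kit-low cells ran from 0 through 8.82 to 49.3 CPM, and the Kit-high cells from 318 through 713 to 1288. The groups are apart by construction. In library 4 the Kit-low cells ran from 0 through 6.30 to 44.2 CPM, and the Kit-high cells from 266 through 411 to 1031. With counts summed per library, Kit stood at 11.04 ± 7.67 CPM in Kit-low cells and 574 ± 110.0 CPM in Kit-high cells (SD, n = 4 libraries). The cells in between stood at 145 ± 24.0 CPM.

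Among Kit-low cells, 36 of 66 had 0 Kit counts and the other 30 had 1 or more. These 36 were all the cells without a Kit count among the 264, 11, 11, 8 and 6 of them in libraries 1 to 4. At an equal depth of 30000 counts per cell, 54 of 66 Kit-low cells had 0 Kit counts and the highest had 3, while Kit-high cells had 4 to 40 with a median of 16. The lower border was close: the last cell inside had 31.2, 14.8, 49.3 and 44.2 CPM in libraries 1 to 4, and the first outside had 33.8, 16.7, 52.7 and 45.7 CPM. At the upper border the first Kit-high cell had 309.8, 430, 318 and 266 CPM, and the last cell outside had 308.5, 398, 290.0 and 257 CPM. The Kit-high cells held 57.3% to 66.9% of all Kit counts of their library.

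**Figure D1:**
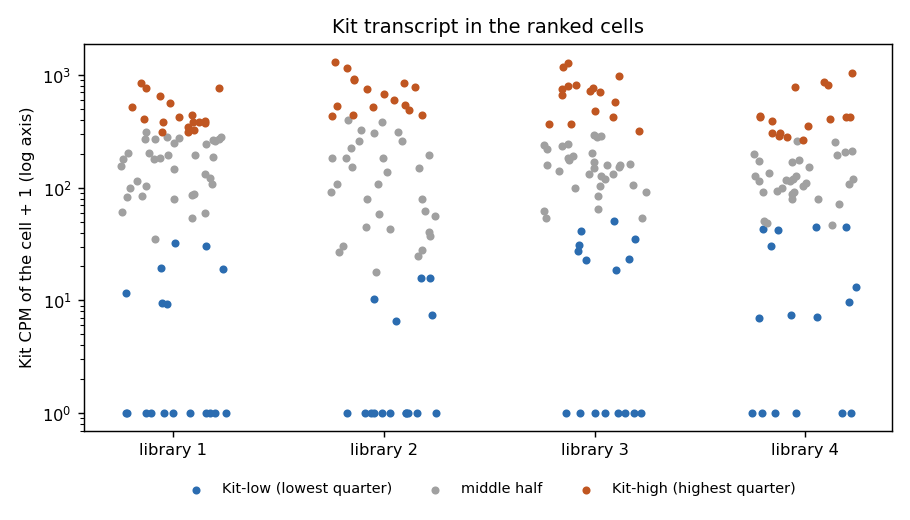
Kit CPM plus 1 of each ranked cell (log axis) in the 4 libraries, with Kit-low cells in blue, the cells in between in grey and Kit-high cells in orange. The row of blue points at the bottom holds the 36 cells with 0 Kit counts, and the lowest Kit-high cell lies at 265.5 CPM.

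Depth did not separate the sides consistently. The median total per cell was 80565, 103028, 63208 and 158580 counts for Kit-low cells of libraries 1 to 4, against 106893, 87039, 67789 and 150606 for Kit-high cells. Kit-low cells were lower in 2 of 4 libraries (exact sign-flip permutation test over 4 libraries, two-sided p = 0.875, smallest possible p = 0.125). Cells without a Kit count, all of them Kit-low, had a lower median total than the other ranked cells in each library. Their medians were 92134, 85685, 63208 and 117678 counts in libraries 1 to 4, against 94485, 121744, 73433.5 and 156394. The part of depth in their Kit values was not tested. The number of genes detected at 30000 counts was lower in Kit-low cells of all 4 libraries, at 2573, 2482, 2464 and 2589, against 2755, 2543, 2587 and 2627 in Kit-high cells. The difference, -101 ± 64.7 genes (SD, n = 4), gave p = 0.125 in the same exact permutation test, the smallest it can give. Mitochondrially encoded transcripts took 1.34% ± 0.13 of the counts of a median Kit-low cell and 1.46% ± 0.17 of a median Kit-high cell (exact permutation p = 0.50). Ribosomal protein transcripts took 20.1% ± 1.11 in Kit-low cells and 19.7% ± 0.97 in Kit-high cells (exact permutation p = 0.75).

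No gene passed the test between the sides. Counts were summed per library and side, and 7708 genes were tested with edgeR's quasi-likelihood test with library as a block, Kit left out. At an adjusted p under 0.05, 0 genes were higher and 0 lower in Kit-low cells, 0% of those tested, and the lowest adjusted p was 0.998. At an unadjusted p under 0.05 there were 248 genes, 3.22% of those tested: 134 higher in Kit-low cells (1.74%) and 114 lower (1.48%). For 254 genes, 3.3%, the 4 Kit-low sums and the 4 Kit-high sums did not overlap. The median log2 difference, Kit-low over Kit-high, was 0.016.

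These counts do not show that the sides are alike. For the 2022 genes above 100 CPM, the 95% interval of a gene's log2 difference reached 0.72 to either side of it at the median. On simulated counts with the spread of these sums, the test over 7708 genes recovered 3% of 100 genes changed by 1 on the log2 scale and 26% of 100 changed by 2. In what follows, log2 differences are Kit-low over Kit-high with the standard error of the edgeR fit, levels are CPM of the library sums, and a bracketed range is a 95% interval of that fit, with each adjusted p at least 0.998. DESeq2 on the same sums gave 12 genes with an adjusted p under 0.05, 3 higher and 9 lower in Kit-low cells, among them S100a9 and Cldn5.

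Of the sort antigens, the 3 genes of lowest p per list and the 5 genes at each end of the correlation with Kit, 36 had an unadjusted p under 0.05 in the edgeR fit. Between the 25% of cells just above the Kit-low cells and the 25% just below the Kit-high cells, which belong to neither side, the sign of 14 of the 36 was opposite. These were Ptpn6, Ifitm3, Cd81, Rap1b, Gng11, Smc2, Ifi47, Tap1, Ndufs6, Cd79b, Rpl18, mt-Nd2, Crebbp and Jpt1. Myb, Gypc, Hspa8, Ndn and Cavin2 were among those that kept their sign there. Myb and Gypc also stood out by their correlation with Kit over all 264 ranked cells, the inner groups included. Their sign in the inner groups is therefore no separate evidence. Medians over lists were not stable either: over 18 alternatives the median of 14 of 24 lists took the opposite sign at least once. The 10 lists with 1 sign in all 18 were the Kit-regulating factors, the cytokine receptors, megakaryocyte and platelet, S phase, G2/M, Myc and growth, MHC class II, oxidative phosphorylation, adhesion and niche, and endothelial lists. Within single libraries, the S phase, G2/M and Myc and growth medians were above 0 in 2 libraries and below 0 in 2. The MHC class II and endothelial medians were above 0 in 1 library and below 0 in 3. These single-library medians used CPM without the normalization factors of the fit, and signs near 0 are not settled. In library 2 the S phase median was -0.0033 and the G2/M median -0.00039, and in library 3 the endothelial median was -0.014. With cells holding a count of Mki67, Birc5 or Ccnb2 left out, the median was -0.026 for cytokine receptors, -0.067 for adhesion and niche and 0.070 for oxidative phosphorylation.

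The other antigens of the sort were found on both sides. Ly6a, which encodes Sca1, stood at 568, 861, 712 and 523 CPM in Kit-low cells of libraries 1 to 4, against 640, 573, 885 and 817 CPM in Kit-high cells. The groups overlapped, and the log2 difference was -0.10 ± 0.20 (95% interval -0.55 to 0.34). Procr, which encodes EPCR, stood at 217, 243, 211 and 284.6 CPM in Kit-low cells, against 331, 285.5, 300.0 and 316 CPM in Kit-high cells. It was lower in Kit-low cells of all 4 libraries, the groups just short of touching, and the log2 difference was -0.34 ± 0.22 (-0.82 to 0.15). Slamf1, which encodes CD150, stood at 110, 52.1, 41.2 and 23.1 CPM in Kit-low cells, against 130, 77.4, 10.2 and 42.6 CPM in Kit-high cells. The groups overlapped, with a difference of 0.02 ± 0.60 (-1.33 to 1.37). At 30000 counts per cell Slamf1 had a count in 19 of 66 Kit-low cells (28.8%, exact 95% binomial interval 18.3 to 41.3) and in 12 of 66 Kit-high cells (18.2%, 9.76 to 29.6), and with counts as deposited in 22 Kit-low and 18 Kit-high cells. Ly6a was found at that depth in 57 Kit-low and 55 Kit-high cells and Procr in 46 Kit-low and 47 Kit-high cells.

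Cd27, whose product is the surface receptor the study sorted by, stood at 83.5, 261, 145 and 139 CPM in Kit-low cells, against 140, 110, 198 and 142 CPM in Kit-high cells. It was lower in Kit-low cells of 3 libraries and higher in library 2, with a log2 difference of 0.03 ± 0.38 (-0.82 to 0.87). At 30000 counts per cell Cd27 had a count in 31 of 66 Kit-low cells (47.0%, exact 95% binomial interval 34.6 to 59.7) and in 29 of 66 Kit-high cells (43.9%, 31.7 to 56.7). With counts as deposited it was found in 38 and 34 cells, 57.6% and 51.5%. Cd48, selected against in the sort, had a count in 0 of 66 Kit-low cells, which allows a share of up to 4.55% by the limit of 3 counts and 5.44% by the exact 95% interval, and in 1 of 66 Kit-high cells. The binomial intervals and limits pool cells over the libraries and cover counting error only.

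**Figure D2:**
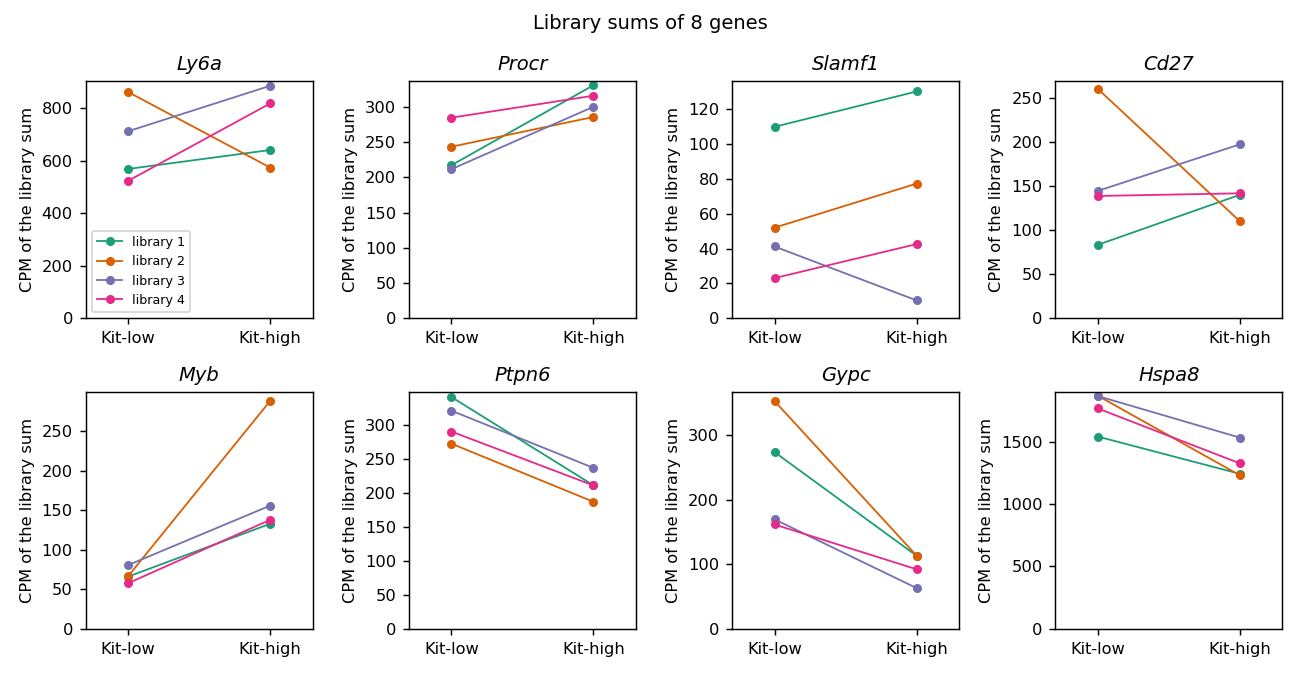
CPM of the library sums of 8 genes in Kit-low cells (left) and Kit-high cells (right), with 1 line per library. Ly6a, Slamf1 and Cd27 lines cross, whereas Myb lines run upward to Kit-high cells and Ptpn6, Gypc and Hspa8 lines run downward in all 4 libraries.

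Of 56 genes of the Kit pathway, 43 were tested and 0 passed, with 21 above and 22 below 0 and a median log2 difference of -0.01, beside 0.016 over all genes. The gene of lowest p was Ptpn6, which encodes the phosphatase SHP-1, a brake on Kit signalling. It stood at 341, 273, 321 and 290.4 CPM in Kit-low cells, against 211, 187, 237 and 211 CPM in Kit-high cells. The groups did not overlap, and the log2 difference was 0.57 ± 0.22 (0.09 to 1.05). It was the only 1 of the 43 with an unadjusted p under 0.05, beside 3.22% of all genes.

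The kinase and adaptor genes of the pathway gave wide intervals. Lyn, a Src family kinase, stood at 25.96, 8.19, 38.6 and 28.2 CPM in Kit-low cells, against 52.0, 41.6, 34.9 and 99.8 CPM in Kit-high cells, overlapping groups with a difference of -1.23 ± 0.76 (-2.92 to 0.46). Map2k1, which encodes the MAP kinase kinase MEK1, had a difference of -0.69 ± 0.44 (-1.68 to 0.30). The adaptor gene Grb2 had one of 0.94 ± 0.74 (-0.71 to 2.58), Stat5a one of -0.34 ± 0.59 (-1.66 to 0.98) and Stat3 one of -0.19 ± 0.29 (-0.83 to 0.45). For Cbl it was 0.41 ± 0.75 (-1.28 to 2.098), and for the lipid phosphatase gene Inpp5d 0.19 ± 0.44 (-0.80 to 1.18). Kitl, the ligand gene, had a count in 1 of 66 Kit-low cells and 0 of 66 Kit-high cells.

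Among transcription factors known to regulate Kit, Myb had the lowest p. Myb, needed for progenitor growth, stood at 66.1, 66.7, 80.7 and 57.8 CPM in Kit-low cells, against 133, 288, 156 and 138 CPM in Kit-high cells. The groups did not overlap, with the highest Kit-low value under the lowest Kit-high value, and the log2 difference was -1.30 ± 0.35 (-2.09 to -0.50). Myb had a count at equal depth in 27 of 66 Kit-low cells and 41 of 66 Kit-high cells. The cells in between stood at 120 CPM on average.

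The other regulators had intervals that covered 0. Tal1, a basic helix-loop-helix factor of blood stem cells, stood at 8.65, 1.75, 7.02 and 54.7 CPM in Kit-low cells, against 82.5, 8.79, 35.8 and 72.6 CPM in Kit-high cells. It was lower in Kit-low cells of each library, though the groups overlapped, with a difference of -2.03 ± 0.93 (-4.10 to 0.04) and 56.5% of its Kit-low counts from 1 cell. Lmo2, the bridging partner of Tal1, had a difference of -0.34 ± 0.20 (-0.79 to 0.10), Runx1 one of -0.74 ± 0.43 (-1.70 to 0.21) and Gata2 one of 0.24 ± 0.31 (-0.45 to 0.93). Spi1, which encodes the myeloid and lymphoid factor PU.1, was higher in Kit-low cells of all 4 libraries, with 0.54 ± 0.25 (-0.02 to 1.10). Of the 17 tested regulators 0 passed, 4 were above and 13 below 0, and their median was -0.34. The median lay below 0 in all 4 libraries, from -0.56 to -0.25.

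Other cytokine receptor genes had no unadjusted p under 0.05 among 24 tested, with a median of -0.27 and 16 below 0. Bmpr2, a bone morphogenetic protein receptor, had -1.20 ± 0.62 (-2.58 to 0.17) and Tek, the angiopoietin receptor, -0.99 ± 0.63 (-2.40 to 0.43). Il27ra, the interleukin-27 receptor gene, had 0.60 ± 0.40 (-0.30 to 1.504). Flt3, a close relative of Kit in the same kinase family, had a count in 5 Kit-low and 9 Kit-high cells.

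The 38 tested genes of HSC identity had a median log2 difference of -0.04, with 18 above and 20 below 0, and 0 passed. At an unadjusted p under 0.05, 3 were higher in Kit-low cells and 0 lower, beside 1.74% and 1.48% of all genes. Ifitm3, an interferon-inducible membrane protein gene, stood at 2162, 1998, 2069 and 1680 CPM in Kit-low cells, against 1864, 1598, 1701 and 1576 CPM in Kit-high cells, with 0.26 ± 0.10 (0.03 to 0.49). Ndn, an imprinted gene linked to HSC quiescence, stood at 129, 93.0, 217 and 127 CPM in Kit-low cells, against 92.0, 44.0, 30.7 and 90.1 CPM in Kit-high cells. Its groups did not overlap, and the difference was 1.21 ± 0.48 (0.13 to 2.28). The tetraspanin gene Cd81 had 0.39 ± 0.16 (0.03 to 0.75), while Mecom, Hlf and Meis1, factors of HSC self-renewal, had -0.11 ± 0.24, -0.37 ± 0.23 and -0.36 ± 0.18.

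Dormancy genes had a median of 0.08 over 21 tested, with 0 passing. Apoe, a lipid carrier, stood at 1780, 2269, 1653 and 2038 CPM in Kit-low cells, against 1676, 1339, 1783 and 1153 CPM in Kit-high cells. It was higher in Kit-low cells of 3 libraries and lower in library 3, with 0.42 ± 0.17 (0.05 to 0.80). Txnip, a thioredoxin-binding protein gene, was lower in Kit-low cells of all 4 libraries, with -0.33 ± 0.13 (-0.61 to -0.05), and its groups overlapped. The CDK inhibitor gene Cdkn1c had 0.08 ± 0.81 (-1.74 to 1.90) and Egr1 -0.35 ± 0.29.

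Megakaryocyte and platelet genes are of interest because Kit-high HSCs are known for a megakaryocyte lean. Of 20 tested, 0 passed, 5 were above and 15 below 0, and the median was -0.11. On CPM without the normalization factors of the fit, the median lay below 0 in all 4 libraries, from -0.38 to -0.0074. It was nearest 0 in libraries 1 (-0.0074) and 4 (-0.059). The factors in library 1 were 0.985 for Kit-low and 1.004 for Kit-high cells, so the sign in library 1 is not settled. The list's sum was lower in Kit-low cells of 3 libraries and higher in 1. It averaged 3441 ± 161 CPM in Kit-low cells and 3591 ± 173 CPM in Kit-high cells (SD, n = 4). The cells in between stood at 3149 ± 197 CPM, below the mean of either side. The 3 members of lowest p pointed both ways. Rap1b, a small GTPase of platelet activation, stood at 78.5, 45.6, 89.5 and 90.2 CPM in Kit-low cells, against 158, 128, 117 and 184 CPM in Kit-high cells. Its groups did not overlap, with -0.94 ± 0.36 (-1.75 to -0.14). Cavin2, a caveola protein gene, stood at 144, 75.5, 94.8 and 63.0 CPM in Kit-low cells, against 18.9, 22.3, 44.3 and 62.9 CPM in Kit-high cells. These groups were barely apart, in the other direction, with 1.47 ± 0.60 (0.13 to 2.80). Gng11, a G protein subunit gene, was higher in Kit-low cells too, with 0.37 ± 0.16 (0.02 to 0.73). Vwf, which encodes von Willebrand factor, had -0.46 ± 0.46 (-1.49 to 0.57), Pf4 0.32 ± 0.46 (-0.70 to 1.34) and Itga2b -1.05 ± 1.54.

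Lymphoid and multipotent progenitor genes had a median of -0.10 over 12 tested and none with an unadjusted p under 0.05. Ikzf2, which encodes the zinc finger factor Helios, had -0.91 ± 0.43 (-1.86 to 0.04), with counts at equal depth in 15 of 66 Kit-low and 31 of 66 Kit-high cells. Ikzf1 had -1.46 ± 0.92 (-3.50 to 0.59), Mef2c 0.34 ± 0.23 (-0.17 to 0.85) and Cd34 -0.55 ± 0.45 (-1.55 to 0.45). Of 8 tested myeloid genes, Prtn3, a neutrophil protease gene, had 0.28 ± 0.18. Of 8 erythroid genes, Gfi1b, a transcriptional repressor active in the erythroid and megakaryocyte lineages, had -0.89 ± 0.45 (-1.89 to 0.11), its groups apart. The globin genes Hbb-bs and Hba-a1 had 0.72 ± 0.66 and 0.59 ± 0.74, and 71.8% of the Kit-low counts of Hba-a1 came from 1 cell. At equal depth Hba-a1 had a count in 17 cells of each side, and Hbb-bs in 12 Kit-low and 19 Kit-high cells.

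The summed MHC class II list was lower in Kit-low cells of 3 libraries and higher in library 2. Cd74, the invariant chain, stood at 271, 466, 155 and 132 CPM in Kit-low cells, against 810.0, 208, 1197 and 302 CPM in Kit-high cells. The groups overlapped, and the difference was -1.15 ± 0.54 (-2.36 to 0.06). H2-Ab1 had -1.37 ± 0.69, Ctss, a protease that trims the invariant chain, -2.27 ± 1.10, and H2-Eb1 0.16 ± 0.86. The 8 tested genes had a median of -0.61, with 0 passing. MHC class I genes had a median of 0.05 over 19 tested. Tap1, a peptide transporter, had 0.78 ± 0.33 (0.05 to 1.52) and Pdia3, a chaperone of peptide loading, 0.40 ± 0.17 (0.02 to 0.79).

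**Figure D3:**
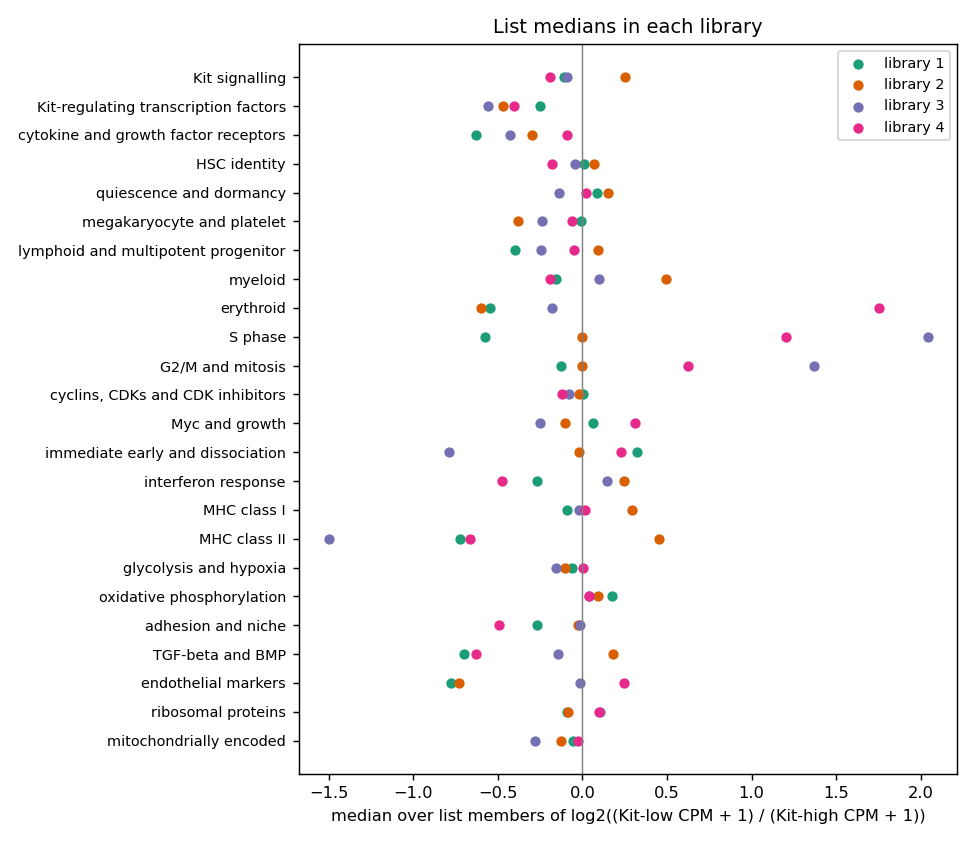
Median over the tested members of each list of log2((Kit-low CPM + 1) / (Kit-high CPM + 1)), with 1 point per library. Most lists lie on both sides of 0, the S phase list spans from -0.58 in library 1 to 2.04 in library 3, and the Kit-regulating factors lie below 0 in each library.

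Cell cycle sums differed in direction between libraries. The summed S phase list stood at 1305, 1409, 5041 and 2220 CPM in Kit-low cells of libraries 1 to 4, against 2046, 1326, 1292 and 1370 CPM in Kit-high cells. Library 3 was high among Kit-low cells, where 1 cell gave 48.9% of the list's counts. Among Kit-high cells library 1 was highest, where 1 cell gave 35.4% of the list's counts. The S phase sum of a median cell of library 1 was 1370 CPM in Kit-low cells and 1412 CPM in Kit-high cells. The G2/M list stood at 3113, 2730, 7234 and 4368 CPM in Kit-low cells, against 3242, 2814, 2455 and 2605 CPM in Kit-high cells, with 45.0% of the counts of Kit-low cells of library 3 from 1 cell. The G2/M sums averaged 4361 ± 2039 CPM in Kit-low cells and 2779 ± 342 CPM in Kit-high cells, and without library 3 3404 ± 857 CPM in Kit-low cells and 2887 ± 325 CPM in Kit-high cells. Without library 3 the S phase sums averaged 1645 ± 501 CPM in Kit-low cells and 1581 ± 404 CPM in Kit-high cells (SD, n = 3), and with it 2494 ± 1747 CPM in Kit-low cells and 1508 ± 360 CPM in Kit-high cells (n = 4).

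The S phase sum of a median cell averaged 1573 ± 171 CPM in Kit-low cells and 1344 ± 128 CPM in Kit-high cells (SD, n = 4 libraries). The G2/M sum of a median cell was 3129, 2921, 3039 and 3889 CPM in Kit-low cells of libraries 1 to 4, against 2910, 2776, 2421 and 2359 CPM in Kit-high cells. It was higher in Kit-low cells of each library, and the groups just failed to overlap. More than 5000 CPM of G2/M transcripts were found in 6 of 66 Kit-low cells and 3 of 66 Kit-high cells. More than 5000 CPM of S phase transcripts were found in 3 of 66 Kit-low cells and 1 of 66 Kit-high cells. With counts as deposited, at least 1 count of Mki67, Birc5 or Ccnb2, which mark dividing cells, was found in 11 of 66 Kit-low cells (16.7%, exact 95% interval 8.62 to 27.9) and 14 of 66 Kit-high cells (21.2%, 12.1 to 33.02). These intervals pool cells over the libraries and cover counting error only. The median log2 difference was 0.59 over 27 tested S phase genes and 0.45 over 22 G2/M genes, with 0 passing in either list. Over the alternatives the S phase median ran from 0.15, without library 3, to 0.94, and the G2/M median from 0.011, between the inner 25% groups that belong to neither side, to 0.65. Dut, which clears dUTP, had 1.496 ± 0.58 (0.21 to 2.78) and Mcm6, of the replicative helicase, 0.75 ± 0.31 (0.06 to 1.44). Smc2, of condensin, had 2.096 ± 0.70 (0.54 to 3.65) and Tuba1b, an alpha-tubulin, 1.00 ± 0.34 (0.25 to 1.76). Mcm6 and Smc2 were higher in Kit-low cells of all 4 libraries. Dut and Tuba1b were lower in Kit-low cells of library 1, with log2 differences there of -0.32 and -0.13 (1 CPM added). Pcna, the sliding clamp, had 0.26 ± 0.57 and Top2a 0.16 ± 0.94, Mcm4 had 1.43 ± 0.81 and Pttg1, the securin gene, 0.70 ± 0.37. Of 13 tested cyclin, CDK and inhibitor genes, Cdk6 had -1.17 ± 0.66 (-2.63 to 0.30), Cdkn2d -0.60 ± 0.33 and Ccnd2 0.20 ± 0.14.

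**Figure D4:**
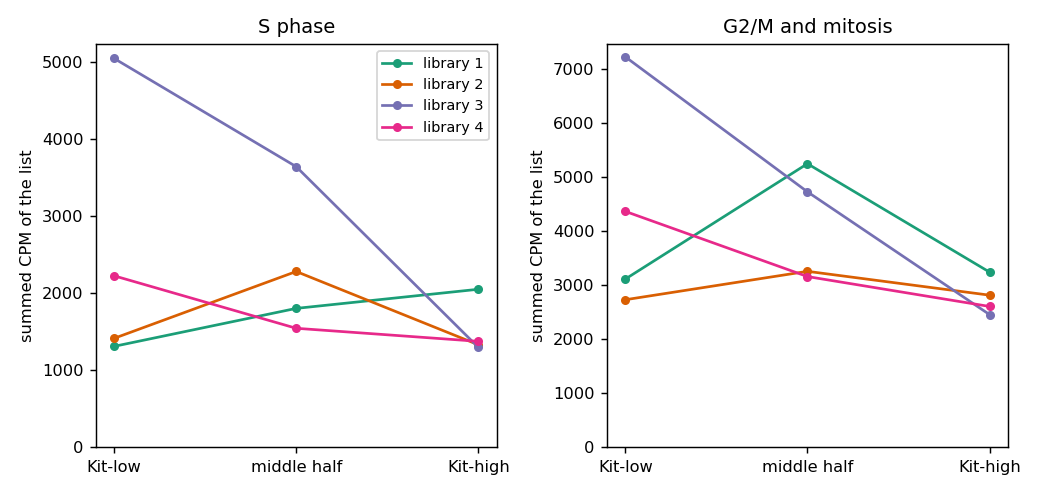
Summed CPM of the S phase list (left panel) and the G2/M list (right panel) in Kit-low cells, the cells in between and Kit-high cells, with 1 line per library. Library 3 runs downward from Kit-low to Kit-high cells in both panels. Library 1 has its highest S phase sum, 2046 CPM, in Kit-high cells, where 1 cell gave 35.4% of the list's counts.

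The chaperone genes Hspa8 and Hsp90aa1 had the lowest p values of the immediate early and dissociation list. Hspa8, a constitutive chaperone, stood at 1540, 1867, 1864 and 1765 CPM in Kit-low cells, against 1242, 1230, 1532 and 1326 CPM in Kit-high cells. The groups did not overlap by a small gap, and the difference was 0.44 ± 0.11 (0.19 to 0.68). Hsp90aa1 had 0.49 ± 0.16 (0.12 to 0.85). They were the 2 of its 32 tested genes with an unadjusted p under 0.05, beside 3.22% of all genes, and its median was -0.02. Fos and Jun, the AP-1 subunit genes that respond to handling of tissue, had -0.08 ± 0.14 (-0.39 to 0.23) and 0.02 ± 0.10 (-0.20 to 0.24), and Btg2 -0.66 ± 0.43.

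Of 34 interferon response genes tested, Ifi47, an interferon-inducible GTPase, had 0.93 ± 0.29 (0.29 to 1.57), with a list median of -0.12. Bst2 had 0.73 ± 0.34 and Oasl2 -0.58 ± 0.28. Oxidative phosphorylation genes had a median of 0.14 over 56 tested, 44 above 0, and a median above 0 in all 4 libraries. The list's summed level was 21045 ± 943 CPM in Kit-low cells and 19588 ± 1341 CPM in Kit-high cells (SD, n = 4). The cells in between stood at 21637 ± 1487 CPM, above the mean of either side. Of its members the ATP synthase subunit gene Atp5d had 0.60 ± 0.20 (0.15 to 1.06), Ndufv3, of complex I, 0.78 ± 0.27 (0.18 to 1.38) and Ndufs6, also of complex I, -0.61 ± 0.27 (-1.22 to -0.01). In the glycolysis and hypoxia list, with a median of -0.01 over 24 tested, Ldhb, a lactate dehydrogenase subunit, had -0.52 ± 0.20 (-0.97 to -0.08). Pdk1, a pyruvate dehydrogenase kinase gene, had -1.22 ± 0.50 (-2.35 to -0.09).

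The Myc and growth list had a median of 0.19 over 30 tested, with Hspe1 at 0.58 ± 0.27, Npm1 at 0.20 ± 0.12 and Mxd4 at -2.12 ± 1.26. The adhesion and niche list had a median of -0.19 over 27 tested, with Adgrg1 at -0.29 ± 0.14 and the integrin gene Itga4 at -1.24 ± 0.61. The transforming growth factor beta and BMP list had -0.74 over 15 tested, and took the opposite sign, 0.31, between the inner 25% groups, with Smad1 at -3.22 ± 1.48 and Id2 at -1.88 ± 1.25. The 81 ribosomal protein genes had a median of 0.04, with Rpl18 at 0.22 ± 0.09, Rpl7 at 0.24 ± 0.11 and Rps26 at 0.19 ± 0.09. The 12 tested mitochondrially encoded genes had a median of -0.06, with mt-Nd2 at -0.27 ± 0.12, mt-Nd4 at -0.22 ± 0.10 and mt-Nd1 at -0.14 ± 0.12. None of the genes of these lists passed in the edgeR fit.

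Markers of other cell types were found on both sides, and their part in the results was not tested. The table held 3 of 8 macrophage, 6 of 12 T and NK cell, 5 of 10 B cell and 7 of 8 neutrophil genes, and all 10 endothelial and 8 stromal genes. The summed macrophage list stood at 9.67 ± 14.9 CPM in Kit-low cells and 40.1 ± 18.6 CPM in Kit-high cells (SD, n = 4). The T and NK cell list stood at 65.88 ± 32.99 CPM in Kit-low cells and 48.1 ± 36.3 CPM in Kit-high cells. It was lower in Kit-low cells of libraries 1 to 3, and without library 4 it stood at 50.6 ± 14.99 CPM in Kit-low cells and 63.4 ± 24.1 CPM in Kit-high cells. Klrb1c had 1.56 ± 1.27 on the log2 scale. The B cell list stood at 111 ± 18.8 CPM in Kit-low cells and 62.7 ± 53.0 CPM in Kit-high cells, mostly Cd79b, with 1.36 ± 0.58 (0.07 to 2.66). The endothelial list stood at 520.1 ± 50.7 CPM in Kit-low cells and 727 ± 188 CPM in Kit-high cells. It was lower in Kit-low cells of 3 libraries and higher in library 4. Its member Cldn5 stood at 4.27 ± 5.23 CPM in Kit-low cells and 101 ± 99.6 CPM in Kit-high cells. Of the Kit-high Cldn5 counts, 48.7% came from 1 cell. The stromal list stood at 30.9 ± 17.6 CPM in Kit-low cells and 22.5 ± 21.5 CPM in Kit-high cells, and without library 3 at 22.2 ± 2.63 CPM in Kit-low cells and 23.8 ± 26.1 CPM in Kit-high cells. For mast cells, which also carry Kit, the table held 1 of 10 listed genes, Cpa3, with 0 counts on both sides. The neutrophil list stood at 125 ± 166 CPM in Kit-low cells and 189 ± 95.6 CPM in Kit-high cells. Without library 3 it stood at 42.2 ± 23.2 CPM in Kit-low cells and 193 ± 117 CPM in Kit-high cells, and without library 1 at 161 ± 183 CPM in Kit-low cells and 148 ± 61.4 CPM in Kit-high cells. In Kit-low cells S100a9, a neutrophil calcium-binding protein gene, stood at 0, 0, 72.8 and 0 CPM, against 78.3, 81.5, 75.0 and 24.8 CPM in Kit-high cells, and 80.7% of its Kit-low counts came from 1 cell. Its fitted difference, -6.32 ± 1.97 (-10.73 to -1.90), depends on the prior count. S100a8 had -0.87 ± 0.90, the macrophage gene Cd68 -1.99 ± 1.72, the T cell kinase gene Lck 1.12 ± 1.77 and the endothelial receptor gene Tie1 -0.41 ± 0.33.

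**Figure D5:**
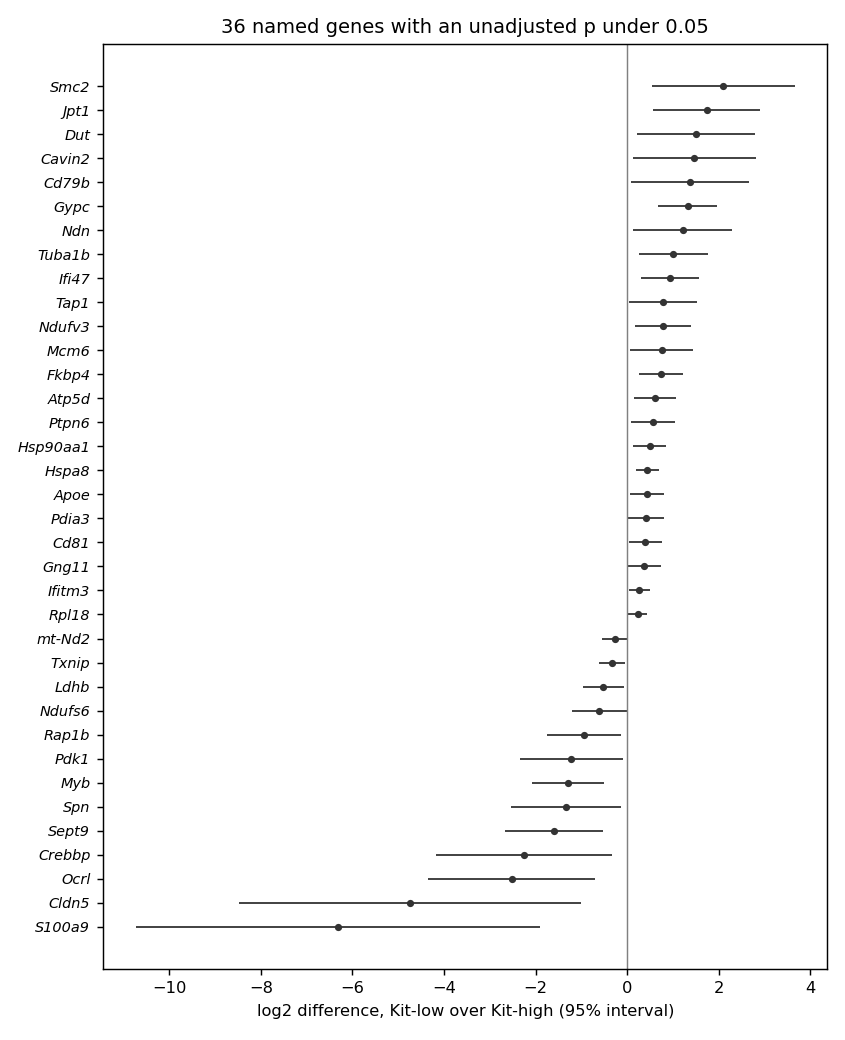
Log2 difference, Kit-low over Kit-high, with its 95% interval from the edgeR fit, for the 36 named genes with an unadjusted p under 0.05. They were picked by p, none has an adjusted p under 0.998, and the intervals are widest for S100a9 and Cldn5, which few cells held.

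Across all 264 ranked cells at 30000 counts each, no gene followed Kit closely. Over 4669 genes found in at least 20% of cells, the mean Spearman rho over the 4 libraries had a median of -0.002, and 95% of genes lay between -0.124 and 0.132. These are descriptions over cells that share libraries and PCR pools. The 5 highest genes were Ocrl (0.25), a phosphoinositide phosphatase, Myb (0.23), Crebbp (0.23), a histone acetyltransferase, Sept9 (0.23), a septin, and Spn (0.22), the leukocyte surface protein CD43. Among the 5 lowest were Gypc (-0.25), a membrane skeleton glycoprotein, Rpl26 (-0.23), Jpt1 (-0.22) and Fkbp4 (-0.22), a co-chaperone of Hsp90. Cd27 had 0.0072, Procr -0.039, Ly6a -0.032 and Slamf1 -0.15, which was negative in each library and under the range of 95% of genes.

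Gypc had the lowest p of all 7708 genes. It stood at 273, 352, 169 and 161 CPM in Kit-low cells of libraries 1 to 4, against 113, 113, 63.1 and 92.1 CPM in Kit-high cells. The groups did not overlap, with a difference of 1.32 ± 0.29 (0.68 to 1.96, edgeR adjusted p = 0.998), and the cells in between averaged 189 CPM. Gypc, Myb and the other genes at the ends of the correlation were ranked on these same cells and Kit values, so their differences are no separate evidence. Jpt1 had 1.73 ± 0.53 and Fkbp4 0.73 ± 0.21, while Rpl26 had 0.16 ± 0.12. Ocrl had -2.53 ± 0.81, Crebbp -2.26 ± 0.86, Sept9 -1.60 ± 0.48 and Spn -1.33 ± 0.54.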

How the data were processed

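RNA of single HSCs was measured in 4 libraries. The authors deposited whole-number counts, and the submitters' processing notes name Trimmomatic 0.36, HISAT2 2.1.0, HTSeq 0.9.1 and GRCm38. No source says that reads were collapsed to molecules, and PCR copies may be among the counts. Cells with at least 30000 counts and 1000 genes were kept, except the runs of consecutively numbered cells. Cells were ranked per library by Kit CPM, ties in file order. Counts were summed per library and side (8 sums, 1139757 to 2906182 counts). No doublet caller was run.

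Genes found in at least 10% of compared cells with at least 40 counts were tested, without Kit, with edgeR 4.0.16 (TMM, robust quasi-likelihood, library block, Benjamini-Hochberg, two-sided) in R 4.3.3. Standard errors and intervals were derived from the F statistic. DESeq2 1.42.0 was an alternative. For equal depth, cells were thinned to 30000 counts. List medians per library used a pseudocount of 1 CPM and no TMM factors. The fit was tested on simulated data. Named genes were Kit, the sort antigens, any called gene (there was none), the 3 members of lowest p per list and the 5 genes of highest and lowest rho with Kit. Some genes that this rule takes in are not reported here. Other genes were added for their role or after their values were seen. The members and lists were chosen with earlier results of these data known. The library block pairs the sides because both come from the same library. The sources do not name the strand setting.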

Additional observations from a re-analysis of the deposited data

Results flagged for a closer look

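Chance marks about 1 in 20 groups of 4 libraries, and 2 of 88 results had 1 library far from the other 3. For Mxd4, a partner of Max that opposes Myc, the log2 difference with 1 CPM added was -5.73 in library 2, against -1.44 to -0.83 in the other libraries. For Cldn5, a tight junction gene of endothelium, it was 1.92 in library 4, against -6.04 to -4.97 in the other libraries. Cldn5 had a count in 10 Kit-low cells and 6 Kit-high cells.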

How the results depend on the processing

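The count of 0 genes in each direction held in 16 of 18 alternatives. DESeq2 called 3 genes higher and 9 lower in Kit-low cells, and the fit with no filter called 1 higher, Cxcl2, with 90.8% of its Kit-low counts in 1 cell. Leaving out each library gave 0 calls, and so did the fit with no replicate block (270 genes at an unadjusted p under 0.05).

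The difference in total counts per cell (main value -1737) turned to 5641 with the runs of cells kept, 7194 between the lower and upper 50% of cells, 2065 between the lower and upper 33.3% of cells, 19706 between the 25% just above Kit-low and the 25% just below Kit-high, 331 with depth balanced, 8664 with breadth balanced and 8415 with cycling cells left out. Leaving out 1 library it ran from -7645 to 6460, the highest without library 1. Genes detected turned to 0.50 (50%), 33.9 (the inner 25% groups) and 22.2 (breadth balanced). The mitochondrial share turned to 0.0027 (50%) and 0.045 (the inner 25% groups) percentage points, and without 1 library ran from -0.188 to -0.0045, the smallest without library 3. The ribosomal share turned to -0.278 (33.3% groups) and -0.023 (the inner 25% groups), and without 1 library ran from -0.376 to 0.869, the lowest without library 3. The causes were not tested.

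Of the 36 named genes with an unadjusted p under 0.05, 14 turned in the inner 25% groups, cells that belong to neither side: Ptpn6 -0.017, Ifitm3 -0.19, Cd81 -0.11, Rap1b 0.66, Gng11 -0.47, Smc2 -0.012, Ifi47 -0.20, Tap1 -0.29, Ndufs6 0.54, Cd79b -0.85, Rpl18 -0.052, mt-Nd2 0.11, Crebbp 0.18 and Jpt1 -0.056. Gng11 also turned between the lower and upper 50% (-0.055). No other of the 36 turned in any alternative. Those picked by their correlation with Kit had been ranked on the inner cells too. The median standard error was 0.73 over all genes and 0.32 above 100 CPM.

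List medians that took the opposite sign in some alternatives ran from -0.18 to 0.11 for Kit signalling, -0.05 to 0.10 for HSC identity, -0.14 to 0.28 for dormancy, -0.29 to 0.11 for lymphoid, -0.14 to 0.21 for myeloid, -0.53 to 0.64 for erythroid, -0.31 to 0.26 for cyclin, -0.19 to 0.30 for immediate early, -0.25 to 0.13 for interferon, -0.13 to 0.11 for MHC class I, -0.12 to 0.16 for glycolysis, -1.07 to 0.31 for TGF-beta, -0.13 to 0.05 for mitochondrial and -0.02 to 0.08 for ribosomal genes. Sums of lists without 1 library were chosen as an alternative after seeing the data.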

Other observations

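The following genes were chosen after their values were seen, for their low unadjusted p, and each had an adjusted p of 0.998 in edgeR. The chemokine gene Ccl4 stood at 97.1, 143, 161 and 181 CPM in Kit-low cells of libraries 1 to 4, against 313, 323, 322 and 267 CPM in Kit-high cells. The groups did not overlap, with a log2 difference of -1.07 ± 0.27 (-1.67 to -0.47). The forkhead gene Foxn3 stood at 69.2, 123, 77.2 and 69.2 CPM in Kit-low cells, against 200.3, 191, 176 and 226 CPM in Kit-high cells, with -1.23 ± 0.32. Nsd3, a histone methyltransferase gene, had -2.37 ± 0.55. In the other direction Nfix, a nuclear factor I gene with a role in HSC survival, stood at 129, 263.8, 307 and 356 CPM in Kit-low cells, against 90.9, 167, 102 and 112 CPM in Kit-high cells, with 1.14 ± 0.31. Laptm4b, a lysosomal membrane protein gene, had 1.61 ± 0.44, Ube2r2, a ubiquitin-conjugating enzyme gene, 1.66 ± 0.44 and the splicing factor gene Srsf6 0.70 ± 0.18.

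The 12 genes that DESeq2 called each had a count in at most 23 cells of a side. Higher in Kit-low cells were Cdca8, a chromosomal passenger protein gene, with counts in 11 Kit-low and 5 Kit-high cells, Crat, a carnitine acetyltransferase gene, in 16 and 5, and Asns, asparagine synthetase, in 11 and 4. Lower in Kit-low cells were S100a9 (3 and 13 cells), Cldn5 (10 and 6), Nek9 (6 and 13), Cdcp1 (4 and 14), Rnf135 (9 and 18), Nsd3 (15 and 23), Slc23a2 (3 and 11), Praf2 (7 and 14) and Ranbp10 (6 and 11).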
